A study of Mus musculus with 12 samples.

Results

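The genes described here are 10 genes of the ATF4 branch of the integrated stress response, of serine and one-carbon synthesis, and of the 2 stress hormones of that branch. They are Atf4, Ddit3, Trib3, Asns, Phgdh, Psat1, Mthfd2, Shmt2, Gdf15 and Fgf21. They were chosen by name for their place in this branch, with earlier results of these data known, out of the 18079 genes in the deposited table. Their RNA was measured in the left ventricle of C57BL/6 mice (C57BL/6J in the methods) after aortic banding (AB), a constriction of the aorta that loads the left ventricle with pressure, or after a sham operation. Surgery was done at 8 weeks of age and hearts were taken 4 weeks later, at 12 weeks. Hispidulin, a plant flavone, was injected intraperitoneally at 20 mg/kg/day from the day ahead of surgery, and control mice received DMSO. The 4 groups were the sham mice given either DMSO (DMSO+Sham) or hispidulin (Hispidulin+Sham) and the banded mice given either (DMSO+AB and Hispidulin+AB), with 3 mice in each and 1 library per mouse. No label gives an engineered allele in any group.

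ATF4 is a transcription factor whose translation is raised when stress kinases phosphorylate the initiation factor eIF2, while most other translation is lowered. ATF4 then turns on genes for amino acid uptake and synthesis, among them the enzymes that make serine and pass its carbon into the mitochondrial folate cycle. In muscle and heart this branch is known for its response to mitochondrial damage, with GDF15 and FGF21 as the hormones that carry the signal to other organs. The levels below are RNA levels, and neither ATF4 protein nor eIF2 phosphorylation was measured in this table.

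ATF4 binds, together with C/EBP proteins, to an 8-base element written TGATGNAA, where N is any base. The element was searched on both strands of a window of 300 bases around each gene's start (250 before and 50 after it), taken from RefSeq sequence of GRCm38.p6. It was present in 3 of the 10 genes, Asns, Fgf21 and Trib3, and in 9 of 23 other ATF4 targets with a window (39.1%). Of all 27025 genes with a window, 4.51% held it, and of all 32851 windows 3.97%. The 3 stretches are shown because they are the only matches to this element among the 12 windows of the 10 genes; each is 30 bases, 5′ to 3′ in the direction of the gene, with the element in capitals.
Asns: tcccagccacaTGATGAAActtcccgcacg
Fgf21: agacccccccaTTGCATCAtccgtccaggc
Trib3: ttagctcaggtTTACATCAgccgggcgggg
The Asns stretch lies at chr6:7693214-7693243 on the minus strand, upstream of the start, with the first base of the element at -23. The Fgf21 stretch lies at chr7:45615611-45615640 on the minus strand, also upstream, with the element in reverse orientation and its first base at -139. The Trib3 stretch lies at chr2:152344028-152344057 on the minus strand, within the transcribed 5′ end, with the element in reverse orientation and its first base at position 15 counted from the start as 1. A window without these letters says nothing about binding elsewhere, and the Mthfd2 window of the table lies inside the gene, at an internal start.

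FPKM, a read number scaled by transcript length and library size, can be compared between genes and is used below. Sums of FPKM per library lay between 535235 and 567027, and the read number per library was not given in the sources used here. Actc1, a sarcomere gene of heart muscle, was listed at 2741 FPKM in the third DMSO+Sham mouse and between 7909 and 11562 FPKM in the other 11. Of the other cardiomyocyte markers, Myl2 was also lowest in that mouse, at 11178 FPKM. Myh6, Tnnt2, Ttn, Ryr2 and Tnni3 were within the range of the other mice. That mouse also had the largest distance from its group's mean over all tested genes, a mean squared residual of 0.105 on the log2 scale, against 0.0183 to 0.0721 in the others. Its summed macrophage markers were 346 FPKM, against 181 to 288 FPKM in the other sham mice and 227 to 352 FPKM after AB. Of these markers, Csf1r and Cd163 were within the range of the other sham mice in that mouse. Its summed neutrophil markers were 55.0 FPKM, against 0.39 to 11.9 FPKM in the other sham mice and 4.13 to 31.0 FPKM after AB. Cardiomyocyte markers were summed to between 29565 and 44937 FPKM, lowest in the third DMSO+Sham mouse, with none of the 7 at 0 in all libraries. Atrial markers were summed to 817 FPKM in one Hispidulin+Sham mouse, 184 FPKM in one DMSO+AB mouse and 107 FPKM in one Hispidulin+AB mouse. Banding itself was visible in every AB mouse: Nppb, a natriuretic peptide gene of the loaded ventricle, was at 801 to 1774 FPKM after AB and at 111 to 366 FPKM after sham.

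Atf4 was the most abundant of the 10 genes, at 55.1 to 120 FPKM, and stood above 95.3% of all genes by its mean. Shmt2 followed at 20.3 to 26.5 FPKM and Ddit3 at 13.0 to 32.7 FPKM, and these ranges overlapped. Gdf15, Mthfd2, Trib3, Asns, Psat1 and Phgdh had median levels between 1.5 and 2.66 FPKM, and their ranges over the 12 mice overlapped one another. Fgf21 was lowest, between 0 and 0.16 FPKM, and was the single gene of the 10 that did not reach 1 FPKM in at least 3 libraries. Tests across genes therefore covered the other 9.

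**Figure D1:**
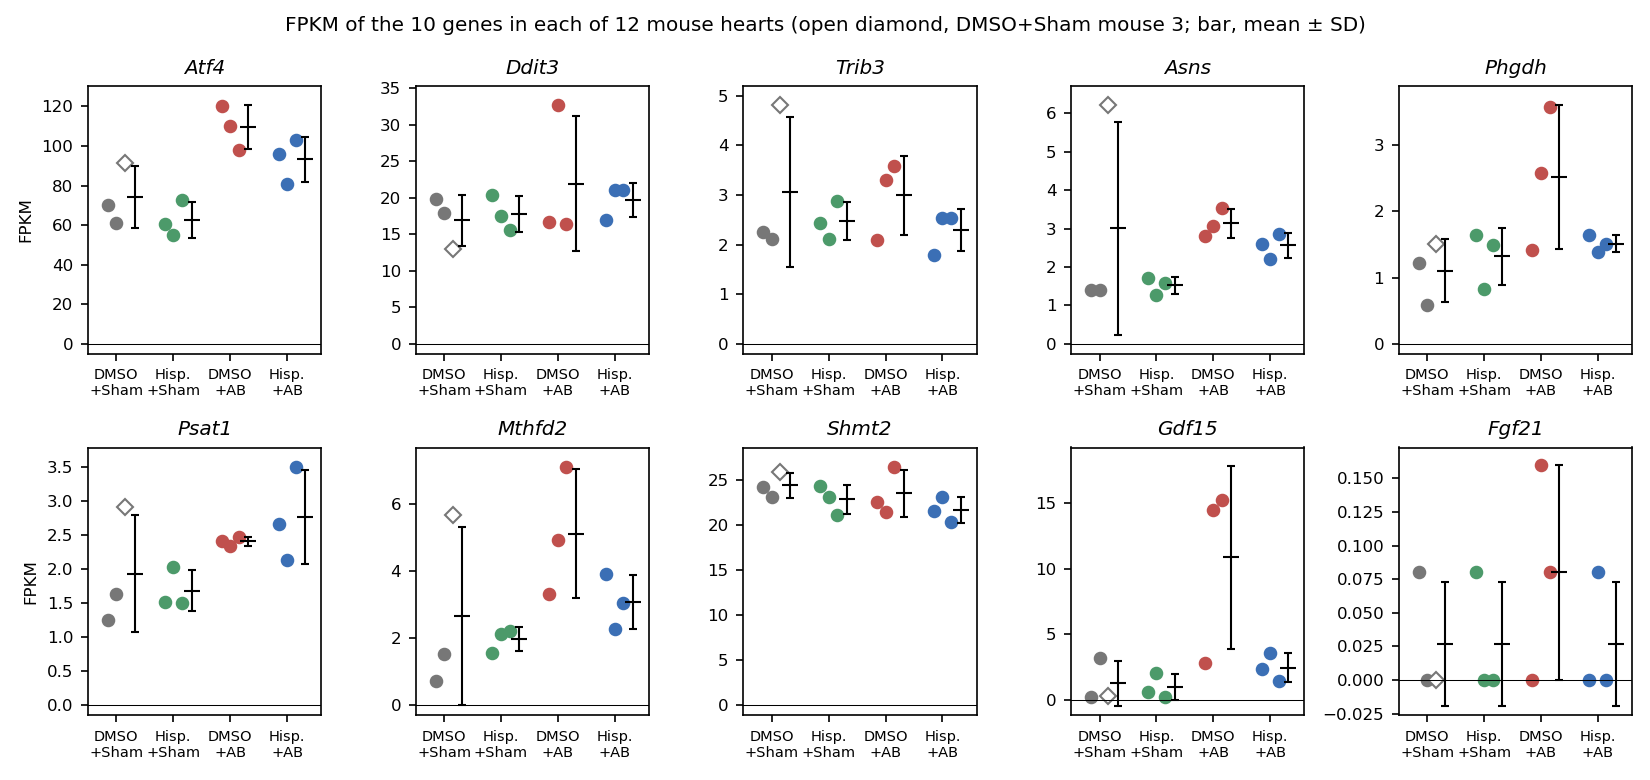
FPKM of each of the 10 genes (vertical axes, linear, from each gene's own scale) in the 12 mice by group; points are mice, the open diamond is DMSO+Sham mouse 3, and the black bar is the mean ± SD of 3 mice. Atf4 is at 80.9 FPKM or more in all AB mice, and the open diamond is the highest point of all 12 mice for Trib3 and Asns.

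The first question was whether banding moved these genes in mice given DMSO. Of the 9 genes tested, 1 passed an adjusted p under 0.05, Gdf15, against 5.21% of all 11664 genes tested in that comparison. All but Shmt2 had an estimate above 0, with a median log2 fold change of 0.31 beside -0.03 over all genes tested, where 44.2% of genes were above 0. In mice given hispidulin, 0 of the 9 passed, as did 0% of all genes by limma, and 847 genes (7.26%) had an unadjusted p under 0.05, among them Atf4 and Psat1. With the replicate number as a block, 17 of all genes passed in that arm and still 0 of the 9, with an adjusted p of 0.296 for Atf4 by limma. Averaging the AB effect over both drug arms, 2 of the 9 passed, Atf4 and Gdf15, both higher, against 3.52% of all genes that passed in the higher direction and 7.39% in either. A stricter rule taken from the methods, an FDR of at most 0.001 with an absolute log2 ratio of 1 or more, left none of the 9 in this averaged comparison and 9 of all genes tested (0.0772%). In each comparison of 1 group with another it left 0% of all genes by limma. The paper reports genes that differed between DMSO+AB and Hispidulin+AB, and its own test was not repeated here. These are bulk samples, so that fewer cells of a type and less RNA per cell cannot be told apart.

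Atf4 itself (chr15:80255184-80257545, GRCm38.p6) rose after AB in the average over both arms. Its level was 70.3, 60.9 and 91.4 FPKM in the DMSO+Sham mice and 60.6, 55.1 and 72.8 FPKM in the Hispidulin+Sham mice. After AB it was 120, 110 and 98.0 FPKM with DMSO and 96.1, 80.9 and 103 FPKM with hispidulin. All AB mice of each drug arm were above all sham mice of that arm, and across arms a single AB mouse, at 80.9 FPKM, was below a single sham mouse, the third DMSO+Sham mouse. The averaged log2 fold change was 0.57 ± 0.11 (SE), a 1.48-fold difference, with limma's adjusted p = 0.0126 and an exact stratified permutation p of 0.005, the smallest that design allows. Within either arm the estimate was 0.57, with adjusted p of 0.0597 for DMSO and 0.479 for hispidulin from limma, so that neither arm passed alone with all mice. The DMSO arm passed in 4 of 17 alternatives: with median-of-ratios scaling (adjusted p = 0.0471 by limma), with library weights (0.0168), with the replicate block (0.0425) and without the third DMSO+Sham mouse (0.0224). The hispidulin arm passed in 1 of 17, with library weights (0.0199). With those weights 1423 of all genes passed in the DMSO arm and 209 in the hispidulin arm. With 3 mice against 3 the exact permutation test cannot give a p below 0.1, and Atf4 was at that limit in both arms. The averaged call held without any 1 of the 12 mice, with log2 fold changes from 0.50 to 0.65, and was lost only when all 3 mice with atrial markers were left out together (0.58, adjusted p = 0.103 from limma).

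The animal numbers in the labels fall into series that start with 5 or 6, plus 1 mouse numbered apart, and no label calls them a batch. Among mice of the 5 series, Atf4 after AB differed from sham by 0.68 on the log2 scale with DMSO (1 mouse against 1) and by 0.82 with hispidulin (1 against 2). Within the 6 series it differed by 0.33 with DMSO (2 against 1) and by 0.27 with hispidulin (2 against 1). The direction was the same in each of these 4 contrasts, as the separation of AB from sham mice within each arm had already fixed, so it adds no check. Fibroblast markers were also higher after AB, with all 8 above 0 in the average, a median log2 fold change of 0.85 and 4 called (Postn, Col1a1, Col1a2 and Col3a1), and with 3 called and a median of 1.33 in the DMSO arm. Their part in the levels of Atf4 and the other genes was not tested.

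Ddit3 and Trib3, the pro-death transcription factor CHOP and the pseudokinase that are both classic ATF4 targets, did not pass in any comparison. Ddit3 was 19.8, 17.9 and 13.0 FPKM in DMSO+Sham, 20.4, 17.5 and 15.6 FPKM in Hispidulin+Sham, 16.7, 32.7 and 16.5 FPKM in DMSO+AB, and 17.0, 21.0 and 21.1 FPKM in Hispidulin+AB. The groups overlapped, and 1 DMSO+AB mouse stood above all others. The averaged log2 fold change of Ddit3 was 0.22, with a 95% interval of -0.14 to 0.59. Trib3 was 2.25, 2.12 and 4.81 FPKM in DMSO+Sham, 2.43, 2.11 and 2.87 FPKM in Hispidulin+Sham, 2.09, 3.31 and 3.59 FPKM in DMSO+AB, and 1.80, 2.53 and 2.53 FPKM in Hispidulin+AB. Its averaged log2 fold change was -0.03 (-0.39 to 0.33), and its highest mouse of the 12 was the third DMSO+Sham mouse. For Ddit3, Mbd6 and Mars1 overlap the annotated gene span, so that reads in the shared stretches may be counted for either gene, and strand was not stated.

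Asns, Psat1 and Mthfd2, enzymes of asparagine synthesis, serine synthesis and the mitochondrial folate cycle, did not pass with all mice equally weighted, and 1 sham mouse stood apart in each. Asns was at 1.39, 1.41 and 6.21 FPKM in DMSO+Sham and at 1.72, 1.27 and 1.58 FPKM in Hispidulin+Sham. Its levels after AB were 2.81, 3.06 and 3.53 FPKM with DMSO and 2.61, 2.22 and 2.86 FPKM with hispidulin. The third DMSO+Sham mouse was therefore above all 6 AB mice, and the other 5 sham mice were below all of them.

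Mthfd2, the mitochondrial methylenetetrahydrofolate dehydrogenase, was at 0.72, 1.52 and 5.69 FPKM in DMSO+Sham and at 1.55, 2.13 and 2.21 FPKM in Hispidulin+Sham. After AB it was at 3.30, 4.93 and 7.13 FPKM with DMSO and at 3.90, 2.28 and 3.04 FPKM with hispidulin. Psat1, the aminotransferase of the serine pathway, was at 1.26, 1.64 and 2.91 FPKM in DMSO+Sham, at 1.52, 2.03 and 1.51 FPKM in Hispidulin+Sham, at 2.41, 2.34 and 2.48 FPKM in DMSO+AB, and at 2.67, 2.14 and 3.51 FPKM in Hispidulin+AB. With all mice, the averaged log2 fold changes were 0.37 for Asns, 0.70 for Mthfd2 and 0.37 for Psat1, with adjusted p of 0.373, 0.162 and 0.129 from limma. With library weights, which keep all mice but give less weight to those far from their group, all 3 passed in the average, as did Mthfd2 in the DMSO arm. That setting called many more genes: 2535 of all 11664 in the average, against 862 with equal weights, and 1423 in the DMSO arm, against 608.

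Without the third DMSO+Sham mouse, 4 of the 9 genes passed in the averaged comparison, against 9.63% of all genes tested. Asns was then 1.56-fold higher after AB (log2 0.64 ± 0.09 SE, adjusted p = 0.00307 from limma), Mthfd2 1.97-fold higher (0.98 ± 0.18, adjusted p = 0.0074), Psat1 1.395-fold higher (0.48 ± 0.11, adjusted p = 0.0207) and Atf4 1.57-fold higher. Gdf15 no longer passed, at a log2 fold change of 1.501 and an adjusted p of 0.053 from limma. In DMSO mice alone 3 passed without that mouse, Asns (0.78), Atf4 (0.73) and Mthfd2 (1.51), against 4.24% of all genes. The same 4 genes, Atf4, Asns, Psat1 and Mthfd2, were higher in all 6 AB mice than in all 5 other sham mice, a separation found in the higher direction for 3.75% of genes; this count was made after the data had been seen. The mouse left out was the one with low Actc1 and high sums of leukocyte markers. It was also the highest of the 12 for some other ATF4 targets, among them Slc3a2 at 60.9 FPKM (27.4 to 39.8 FPKM in the other 11) and Wars at 50.1 FPKM (21.6 to 34.6 FPKM). Slc7a5, Eif4ebp1 and the eIF2 kinase gene Eif2ak2 were highest there as well. Other targets were not, Atf5 for example at 61.3 FPKM against up to 87.8 FPKM. The part of these values in the levels of Asns, Mthfd2 and Psat1 in that mouse was not tested. The mice of the hispidulin arm are all part of that count, so the same 4 genes were necessarily higher in all AB than in all sham mice there. In that arm 9.14% of genes were separated in this direction. In the DMSO arm with all mice Atf4 alone was separated in this way, against 7.18% of genes.

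**Figure D2:**
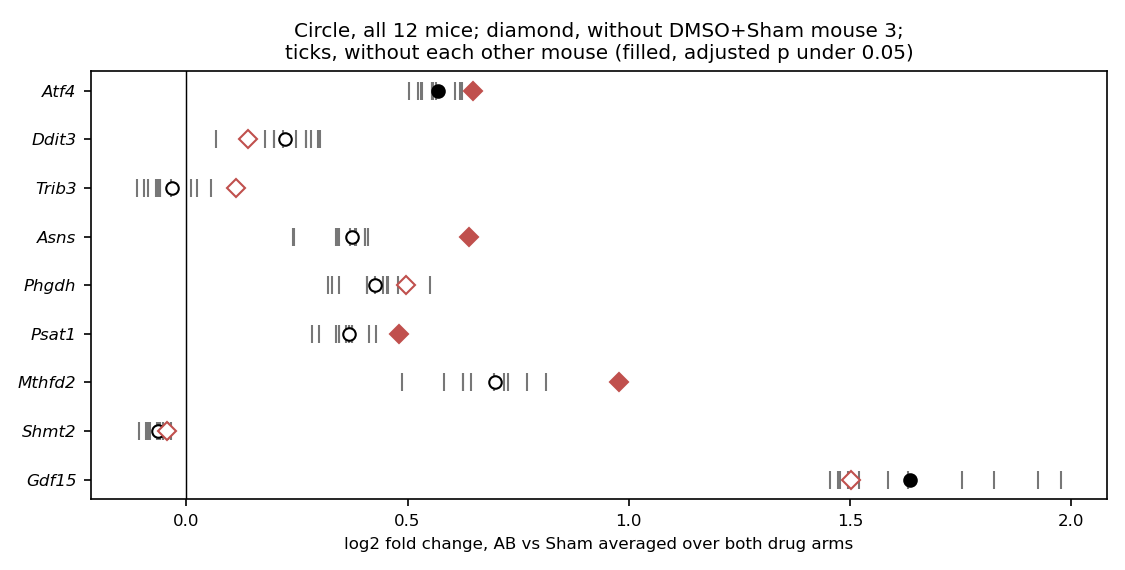
log2 fold change of AB against Sham, averaged over both drug arms (horizontal axis), for the 9 genes tested: circles use all 12 mice, diamonds leave out DMSO+Sham mouse 3, ticks leave out each of the other mice, and filled circles and diamonds have an adjusted p under 0.05. Diamonds of Asns, Psat1 and Mthfd2 lie to the right of all their ticks and are filled, whereas Atf4 is filled with and without that mouse.

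Phgdh and Shmt2, the first enzyme of serine synthesis and the mitochondrial enzyme that splits serine to glycine, did not pass with all mice equally weighted. Phgdh was at 1.22, 0.58 and 1.51 FPKM in DMSO+Sham, 1.64, 0.83 and 1.49 FPKM in Hispidulin+Sham, 1.41, 2.58 and 3.57 FPKM in DMSO+AB and 1.64, 1.39 and 1.51 FPKM in Hispidulin+AB. The highest levels were those of 2 DMSO+AB mice, and the other AB mice lay within the range of the sham mice. The log2 fold change in DMSO mice was 0.72 ± 0.24 (SE), with an adjusted p of 0.106 from limma. Without the first DMSO+AB mouse, the lowest of its group, Phgdh passed in the DMSO arm (0.97, adjusted p = 0.0223 by limma) and in the average (0.55, adjusted p = 0.0387). With library weights and all mice it passed in the average (0.42, adjusted p = 0.0445). Of all 11664 genes, 954 passed in the DMSO arm and 1170 in the average without the first DMSO+AB mouse, and 2535 in the average with library weights. Shmt2 was nearly level, at 24.3, 23.2 and 25.9 FPKM in DMSO+Sham, 24.4, 23.1 and 21.1 FPKM in Hispidulin+Sham, 22.6, 21.5 and 26.5 FPKM in DMSO+AB and 21.6, 23.1 and 20.3 FPKM in Hispidulin+AB. Its averaged log2 fold change was -0.06, with a 95% interval of -0.23 to 0.10. A named pseudogene, Phgdh-ps1, exists for Phgdh, and Ndufa4l2 overlaps the span of Shmt2, so that reads of these genes could be shared.

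Gdf15 (chr8:70629393-70632470, GRCm38.p6), which encodes a secreted protein that acts on appetite neurons of the hindbrain, varied most of the 10 genes. Its level was 0.22, 3.20 and 0.30 FPKM in DMSO+Sham and 0.58, 2.07 and 0.23 FPKM in Hispidulin+Sham. After AB it was 2.83, 14.5 and 15.3 FPKM with DMSO and 2.36, 3.58 and 1.4 FPKM with hispidulin. Of the DMSO+AB mice, 2 stood far above all other mice, and the first lay below the highest DMSO+Sham mouse, so that the groups overlapped. The mean was 10.9 ± 6.97 FPKM (SD, n = 3) in DMSO+AB and 1.24 ± 1.70 FPKM (SD, n = 3) in DMSO+Sham. The log2 fold change was 2.39 ± 0.60 (SE), a 5.25-fold difference on the log2(FPKM + 1) scale, with limma's adjusted p = 0.0411 and an exact permutation p of 0.2. That call passed in 2 of the 6 fits that left out 1 mouse, those without the second DMSO+Sham mouse (2.97) or the first DMSO+AB mouse (3.08). It did not pass without the first (2.08) or the third (2.13) DMSO+Sham mouse, or without the second (2.07) or the third (2.03) DMSO+AB mouse. Averaged over both arms it was 1.63 ± 0.42 (SE), with limma's adjusted p = 0.0366 and an exact permutation p of 0.025.

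The averaged Gdf15 call passed in 3 of the 12 fits that left out 1 mouse, with log2 fold changes from 1.46 to 1.98, so that leaving out any 1 of 9 mice ended it. The 2 mice with the highest Gdf15 also had the highest Nppa of the series, 6043 and 5738 FPKM, against 680 FPKM in the first DMSO+AB mouse and 666 to 1047 FPKM in Hispidulin+AB. The second DMSO+AB mouse, with 14.5 FPKM of Gdf15, is the one of its group with atrial markers (184 FPKM) and the one with the highest Ddit3, and Nppa is also an atrial gene. Of 8 fibroblast markers, 7 were higher in both of these mice than in the first DMSO+AB mouse, Col1a1 for example at 74.8 and 75.6 against 22.9 FPKM. Pdgfra was the exception, at 6.84 and 7.93 against 7.22 FPKM. Summed fibroblast markers ranged from 406 to 987 FPKM in DMSO+AB, from 407 to 656 FPKM in Hispidulin+AB and from 346 to 483 FPKM in the sham groups, with Dcn the largest single term of each sum and none of the 8 markers at 0 in all libraries. The part of these values in the Gdf15 levels was not tested.

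Fgf21, the other hormone of the branch and best known as a product of liver, was listed at 0 in 7 of the 12 mice. Its only other values were 0.08 FPKM in 4 mice, 1 from each group, and 0.16 FPKM in 1 DMSO+AB mouse. No difference was detectable at these levels. Of the 8 receptor genes listed for the hormones, 2 were tested. The coreceptor Klb, which FGF21 needs, was between 0 and 0.11 FPKM, and the GDF15 receptor Gfral was at 0 in all but 1 mouse, at 0.04 FPKM. Fgfr1, a receptor tyrosine kinase shared with other FGFs, rose after AB. It was at 9.33, 9.32 and 10.1 FPKM in DMSO+Sham and at 12.9, 15.1 and 15.8 FPKM in DMSO+AB. These groups did not overlap, as for 7.18% of all genes in the higher direction. The log2 fold change was 0.56 ± 0.10 (SE), with limma's adjusted p = 0.0121. In the hispidulin arm Fgfr1 was at 10.5, 9.64 and 10.7 FPKM after sham and at 11.9, 11.1 and 11.6 FPKM after AB, a log2 fold change of 0.15 with an adjusted p of 0.824 by limma. The groups of this arm did not overlap either, as for 9.14% of all genes in the higher direction. The interaction for Fgfr1 was -0.40, with an adjusted p of 0.9995, and its unadjusted p was 0.0138. Between Hispidulin+AB and DMSO+AB, whose mice did not overlap (3.65% of all genes in the lower direction), Fgfr1 differed by -0.32, with an unadjusted p of 0.00781 and an adjusted p of 0.996 by limma, so that neither difference passed. Fgfr3, the other receptor gene tested, was at 4.48, 5.29 and 6.58 FPKM in DMSO+Sham and at 3.98, 4.15 and 4.99 FPKM in DMSO+AB, with a log2 fold change of -0.26 and an adjusted p of 0.436 by limma.

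The second question was whether hispidulin moved these genes. Between Hispidulin+AB and DMSO+AB, 0 of the 9 genes passed, as did 0% of all genes by limma, and 362 genes (3.1%) had an unadjusted p under 0.05. Gdf15 was the single one of the 9 among these, with a log2 difference of -1.57 (95% interval -2.87 to -0.27), limma's unadjusted p = 0.022 and adjusted p = 0.996. The groups overlapped, since the first DMSO+AB mouse was below the second Hispidulin+AB mouse. Without that DMSO+AB mouse the difference was -2.25, and without the third it was -1.21, and neither passed after adjustment. Within the animal numbers that start with 5 it was -2.76 (1 mouse against 1), and within those that start with 6 it was -0.97 (2 against 2).

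For the other 8 genes the estimates ran from -0.56 for Mthfd2 (-1.43 to 0.31) to 0.13 for Psat1 (-0.29 to 0.55), and 8 of the 9 were below 0, where 51.4% of all genes were above 0. Atf4 differed by -0.23 on the log2 scale, with an interval of -0.57 to 0.12. In sham mice, 0 of the 9 passed between Hispidulin+Sham and DMSO+Sham, with 0% of all genes by limma, 287 genes (2.46%) at an unadjusted p under 0.05 and none of the 9 among them.

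Whether the AB effect itself differed between the drug arms was tested as an interaction. None of the 9 genes passed, as did 0% of all genes by limma, with 289 genes (2.48%) and none of the 9 at an unadjusted p under 0.05. For Gdf15 the AB effect was smaller with hispidulin by 1.52 in the estimate (interaction -1.52, 95% interval -3.35 to 0.32, limma's adjusted p = 0.9995), and a difference was not shown. For Atf4 the estimate was 0.00, with an interval of -0.49 to 0.48. The DMSO+AB mice enter both the banding and the drug comparison, so that those values are not independent of each other.

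**Figure D3:**
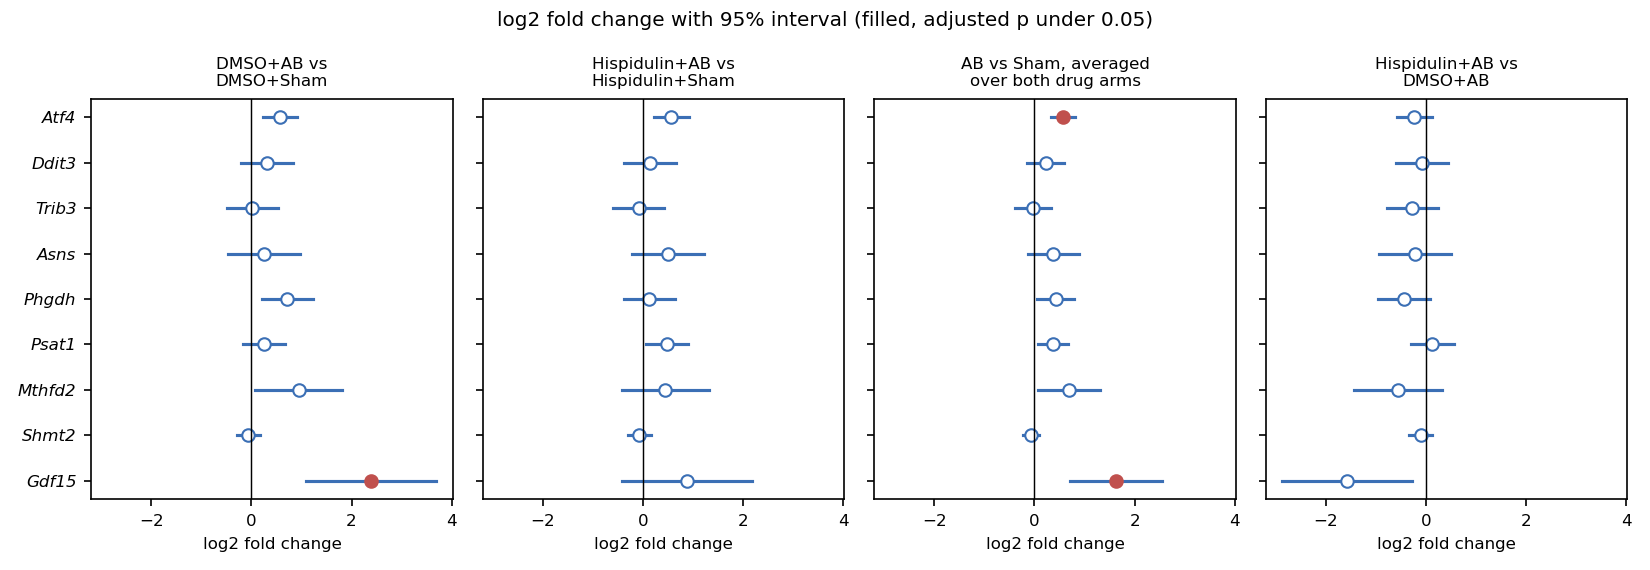
log2 fold change (horizontal axes) with its 95% interval for the 9 genes tested, in the 3 AB against Sham comparisons and in Hispidulin+AB against DMSO+AB; filled points have an adjusted p under 0.05. Filled points are Gdf15 at 2.39 in the DMSO arm, and Atf4 at 0.57 and Gdf15 at 1.63 in the average over both arms.

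Other genes of the branch were read from lists of its known parts. Of 28 other ATF4 targets, 27 were tested and 6 passed in the averaged AB comparison, 4 higher and 2 lower, with a median log2 fold change of 0.08 beside -0.03 over all genes. That is to be read beside the 3.52% of all genes that passed higher and the 7.39% that passed in either direction. Within the DMSO arm alone 0 targets passed higher and 2 lower (Gpt2 and Vldlr), where 2.5% of all genes passed higher and 2.71% lower. Within the hispidulin arm 0 passed, as did 0% of all genes. Those that rose were Atf3, a stress transcription factor (2.204), Nupr1, a stress-induced chromatin protein (1.36), Slc38a2, an amino acid transporter (0.68), and Aldh18a1, an enzyme of proline synthesis (0.51). Those that fell were Gpt2, a mitochondrial alanine aminotransferase (-0.73), and Vldlr, a lipoprotein receptor (-0.51). The adjusted p of these 6 lay between 0.00775 and 0.0412 by limma.

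Atf3 spread widely within the AB groups, at 116, 14.6 and 17.1 FPKM with DMSO and 67.9, 20.6 and 104 FPKM with hispidulin, against 1.98 to 14.3 FPKM in sham mice. All AB mice were above all sham mice for Atf3, as for 2.15% of all genes. Gpt2 was at 9.12, 6.51 and 8.52 FPKM in DMSO+AB and at 18.6, 15.2 and 12.2 FPKM in DMSO+Sham, without overlap, as for 10.8% of all genes in the lower direction. Leaving out 1 mouse ended the calls of Aldh18a1, Slc38a2, Atf3 and Nupr1 in at least 6 of 12 fits each, and those of Gpt2 and Vldlr in none, but both were lost when the 3 mice with atrial markers were left out together (adjusted p = 0.0953 and 0.115 by limma), as was that of Fgfr1 (0.144). Over the fits without 1 mouse the list had between 2 and 8 genes called, with the highest number when the third DMSO+Sham mouse was left out.

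In the same comparison, in which 7.39% of all genes passed and 44.2% were above 0, the 3 further lists had no gene called. None of the 16 genes for the stress kinases, the eIF2 and eIF2B subunits and their regulators passed, with a median log2 fold change of -0.01. Their smallest p-values were those of Dele1, which relays mitochondrial stress to a kinase (-0.24, adjusted p = 0.101), and Ppp1r15a, a subunit of the eIF2 phosphatase (0.44, adjusted p = 0.107, both by limma). Of 21 other serine and one-carbon genes 19 were tested and 0 passed, with a median of -0.05. Slc1a4, a transporter of serine and alanine (0.39, adjusted p = 0.0639), and Aldh1l2, a mitochondrial folate enzyme (-0.41, adjusted p = 0.0739), had the smallest p-values by limma. Among 13 mitochondrial chaperones and proteases 0 passed and 11 were below 0, with a median of -0.14, led by Clpx, the unfoldase of a matrix protease (-0.50, adjusted p = 0.0585 by limma), and Trap1, a chaperone (-0.18, adjusted p = 0.0772 by limma).

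**Figure D4:**
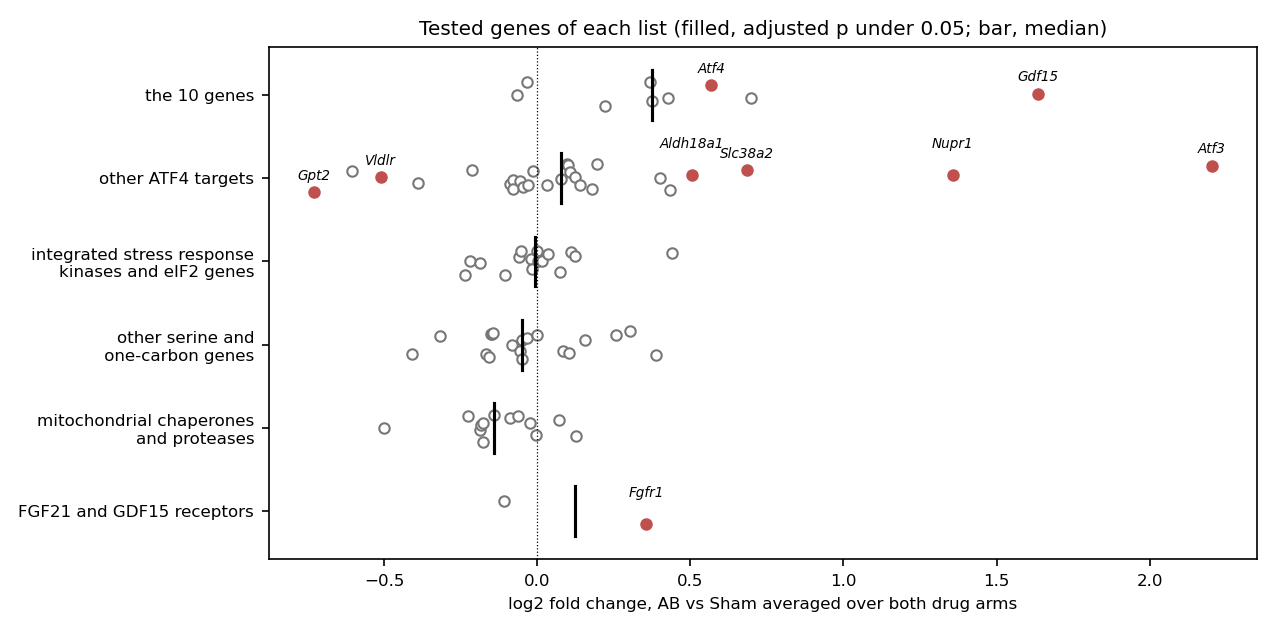
log2 fold change of AB against Sham, averaged over both drug arms (horizontal axis), for the tested genes of the 10 and of each list (rows, with vertical scatter only to separate points); filled points have an adjusted p under 0.05 and bars are medians. Filled points occur among the 10 genes, the other ATF4 targets and the receptors (Fgfr1), and on both sides of 0 only among the other ATF4 targets.

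How the 9 tested genes varied together was described by Pearson's r of log2(FPKM + 1) over the 12 libraries, which share the group differences. Of the 36 pairs, 29 had a positive r, with a median of 0.33, and without the third DMSO+Sham mouse 31 were positive, with a median of 0.42. The genes with the widest log2 range were Gdf15 (3.74), Mthfd2 (2.24) and Asns (1.67). Most like Gdf15 were Pfn1 (r = 0.972), Serf2 (0.966) and Cygb (0.959). Most like Mthfd2 were Adam15 (0.956), Ruvbl1 (0.931) and Rab11fip3 (0.925), and most like Asns were Ptpn1 (0.977), Tnfrsf1a (0.963) and Shisa5 (0.963). Each r was taken over 12 libraries, and the genes named are the 3 highest of all tested genes.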

How the data were processed

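RNA-seq of 12 mouse left ventricles was used. FPKM values had been computed by the authors and deposited as 1 table, rounded to 0.01, from single-end reads of 50 bases of polyadenylated RNA on a BGISEQ-500. The submitters' processing notes name HISAT2 2.0.4, Bowtie2 2.2.5, RSEM 1.2.12 and DESeq2 1.4.5. The genome build and annotation are not given in the sources used here. Low FPKM, rounded as they are, did not give back read numbers, so the depth is unknown and no counting error can be given. Genes were matched from NCBI Gene identifiers to symbols for 17947 of 18079 genes.

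Groups were taken from the sample labels, and p-values measure the spread between mice. FPKM were tested as log2(FPKM + 1) with limma 3.58.1 in R 4.3.3, with 1 mean per group, all 12 libraries, a variance trend, two-sided tests and Benjamini-Hochberg adjustment over the 11664 genes with at least 1 FPKM in at least 3 libraries (8 residual degrees of freedom). Fold changes on this scale understate the change of low genes. Exact two-sided permutation tests were added for single genes. The tests were checked on simulated data. Genes of the lists are named if adjusted p was under 0.05 in any comparison, at most 6 a list, or otherwise the 2 of smallest p. The genes and lists were chosen with earlier results of these data known. Sequences and coordinates were read from RefSeq tables (GRCm38.p6) with Python 3.11.15.

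Mice that share a replicate number are separate animals. Between same-numbered mice, residuals of the 2 hispidulin groups had correlations of 0.147, 0.197 and 0.228 and those of the 2 sham groups 0.126, 0.33 and 0.232, so the numbers meet the rule for pairs there. Results are given without the block, and blocked values are added where they moved a call or a count. In the other comparisons at least 1 correlation was below 0. Alternatives were another added value, other filters, scalings and variance settings, library weights, the animal number series, only the libraries compared, the replicate block, the libraries with atrial genes left out, and each mouse left out in turn.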

Additional observations from a re-analysis of the deposited data

How the results depend on the processing

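In DMSO mice, 1 of the 9 genes passed after AB, and the number became 0 with 0.1 added ahead of the logarithm, without a filter on low values, with an FPKM of at least 5 (where fewer of the genes were tested), with the series of animal numbers as covariate, with only the libraries compared, and without the 3 libraries with atrial genes. It became 2 with median-of-ratios scaling and 3 with library weights. For the average over both drug arms the number was 2 and became 1 without a filter, with an FPKM of at least 5 and with the series covariate, 0 without the 3 libraries with atrial genes, and 6 with library weights (Asns, Atf4, Gdf15, Mthfd2, Phgdh and Psat1), which also gave 1 between Hispidulin+AB and Hispidulin+Sham. Leaving out 1 mouse gave 0 to 3 in the DMSO arm and 1 to 4 in the average. With the replicate block 2 genes passed in the DMSO arm, Atf4 and Gdf15, and 2 in the average, and it changed no other call of the 10 genes. In Hispidulin+AB against Hispidulin+Sham the block raised the count over all genes from 0 to 17, with none of the 10 genes among them. That count became 209 with library weights, with Atf4 among them, and 49 with only the libraries compared, with none of the 10 genes. Over all genes, the number called in DMSO mice was 608 and became 11 with only the libraries compared, 142 with the series covariate, 20 without the 3 libraries with atrial genes, 383 without a filter and 1423 with library weights. In the average it was 862 and became 547, 74, 643 and 2535 under the last 4 of these. Leaving out 1 mouse gave 91 to 1053 in DMSO mice, lowest without the first and highest without the second DMSO+Sham mouse, and 376 to 1220 in the average, lowest without the third Hispidulin+AB and highest without the second DMSO+Sham mouse. Why these counts moved was not tested.

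Some estimates that had not passed changed sign, among them Ddit3 (0.31) and Asns (0.25) in the DMSO arm. Without the 3 libraries with atrial genes the log2 fold changes were -0.00538 for Ddit3, -0.0471 for Trib3 and 0.00329 for Shmt2 in the DMSO arm, -0.0022 for Ddit3 in the average, 0.18 for Ddit3 and -0.0212 for Psat1 between Hispidulin+AB and DMSO+AB, and 0.0391 for the Atf4 interaction. The Atf4 interaction was 0.0148 after quantile normalization, Trib3 was 0.0622 in the average with library weights, and Asns and Trib3 were -0.054 and -0.131 in the DMSO arm with the series covariate. With 1 mouse left out, the DMSO arm gave -0.0159 to 0.78 for Asns, -0.142 to 0.31 for Trib3, -0.00538 to 0.47 for Ddit3 and -0.143 to 0.00329 for Shmt2. The same fits gave -0.0299 to 0.23 for Phgdh and -0.157 to 0.0305 for Trib3 in the hispidulin arm, -0.111 to 0.11 for Trib3 in the average, -0.24 to 0.23 for Ddit3 and -0.0063 to 0.25 for Psat1 between Hispidulin+AB and DMSO+AB, and -0.16 to 0.13 for the Atf4 interaction. None of these results had passed with all mice, and of the fits that set these ranges only that of Asns without the third DMSO+Sham mouse (0.78) passed. Over the alternatives, Atf4 passed in the average in 21 of 22 and Gdf15 in 9 of 21, with adjusted p by limma of 0.00418 to 0.242 for Gdf15. Groups of 3 mice and unknown depth limit what could be detected, also for Fgf21 and for the genes near 1 to 3 FPKM.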
